A study of Mus musculus with 12 samples.

Results

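Trp63, Sox10, Sox9, Snai2, Id4, Tbx3, Egr3, Procr and Tfap2a were listed together as basal and progenitor genes of the mammary epithelium. These 9 genes are described across 4 groups of mice. They were found as the probe sets whose platform annotation names a listed gene and no other gene. All 9 of 9 were measured, by 26 probe sets, among 18193 genes in all. All but Procr, which encodes a receptor on the cell surface, encode transcriptional regulators. The level of a gene is the log2 intensity of its brightest probe set, averaged over the 12 arrays. Such levels can be compared between arrays but not between genes.

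The mice were 12 virgin, ovariectomized C57BL/6 females, and total RNA of each mammary gland was hybridised to an Affymetrix array of its own. Wildtype mice (Ccnd1+/+) and mice lacking cyclin D1 (Ccnd1-/-) received either a placebo pellet or a pellet of 0.72 mg estradiol made for release over 60 days, and were killed after 7 days. The 4 groups of 3 mice are therefore wildtype placebo, wildtype estradiol, knockout placebo and knockout estradiol, and all had lost their ovaries, so the placebo mice had no ovarian estrogen. The question in the study's title is whether the gland's response to estrogen depends on cyclin D1, which activates the kinases that take cells into S phase. The knockout is labelled by genotype alone, without a cell type, and the age of the mice, the gland taken and the fate of its lymph node are not given in the sources used here.

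The mammary epithelium is a bilayer of inner luminal cells and outer basal cells, and the outer layer is contractile and rests on the basement membrane. p63, the product of Trp63, maintains the basal layer, while Sox9, Sox10 and Slug, the product of Snai2, are tied to mammary stem and progenitor activity. Estradiol acts through estrogen receptor alpha, which in the mammary epithelium is found mainly in luminal cells, so that basal and progenitor cells are thought to receive much of the signal from their neighbours.

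The groups carried the genotype they were labelled with: Ccnd1 ranged from 8.50 to 10.82 (log2 level) in the 6 wildtype arrays and from 7.24 to 7.68 in the 6 knockout arrays, a difference of -1.93 (exact two-sided permutation p = 0.00216, the smallest that 924 arrangements can give). Where its probes lie relative to the deleted stretch is not known here. Array medians were 5.73 to 5.8, and no arrays were duplicates. A score over 10 measured lymphocyte genes divided the arrays within each group. It was -2.02 in wildtype placebo array 3 and knockout placebo array 2, against 1.81 to 2.53 in the other placebo arrays. Under estradiol its range was -2.48 to 0.81 in wildtype and -2.25 to 1.63 in knockout. In all 12 arrays the defining basal keratin Krt5 and the luminal keratin Krt8 lay above the lower quartile of their array. With 3 mice a group, precision is limited by the number of arrays. In whole tissue a lower level can come from fewer cells of a type or from less RNA per cell, which cannot be told apart.

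Sox10 and Snai2 rose under estradiol in the wildtype gland, and limma called no other member at an adjusted p under 0.05 (Benjamini-Hochberg over 18193 genes). That is 2 of 9, beside 1.88% of all genes (342 of 18193). The median difference of the 9, estradiol minus placebo, was 0.92 in log2, against 0.011 for all genes. Of the 9, 8 lay above 0, beside 52.0% of all genes. An unadjusted p under 0.05 was found for 6 of the 9 and for 2450 of the 18193 genes. In 5 of the 9 (Trp63, Sox10, Snai2, Id4 and Tbx3) all 3 estradiol arrays lay above all 3 placebo arrays, which was so for 11.9% of all genes.

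In the knockout gland no member was called, where 0.0989% of all genes were (18 of 18193). Of the members, 1, Snai2, had an unadjusted p under 0.05, as did 1513 of the 18193 genes. The median difference of the 9 was -0.08. Snai2 was the only member whose estradiol arrays all lay above the placebo arrays, as in 8.37% of all genes, and Procr the only one whose estradiol arrays all lay below, as in 5.09% of all genes. Under estradiol all 9 genes were lower in knockout than in wildtype, by a median of -0.98, while 55.2% of all genes were higher. Sox10 was called. That is 1 of 9, beside 1.12% of all genes (204, of which 198 were lower in knockout). An unadjusted p under 0.05 was found for 7 of the 9 and for 2457 of the 18193 genes. In 7 of the 9, all but Snai2 and Egr3, the 3 knockout arrays lay below the 3 wildtype arrays, as in 11.8% of all genes. The estradiol comparison in wildtype and the genotype comparison under estradiol share the 3 wildtype estradiol arrays, so they are not independent of each other.

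On placebo no member was called between genotypes, none had an unadjusted p under 0.05, and the differences ran from -0.42 to 0.40. No gene of the whole set was called there either (0%), although 370 had an unadjusted p under 0.05. The test of whether the estradiol response itself differed between genotypes called no member, and 0.011% of all genes (2 of 18193). Averaged over both genotypes, the estradiol difference was called for 1 member, Snai2, beside 1.58% of all genes. The average genotype difference was called for no member and for 0% of genes, with 6 members and 1845 genes at an unadjusted p under 0.05.

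**Figure D1:**
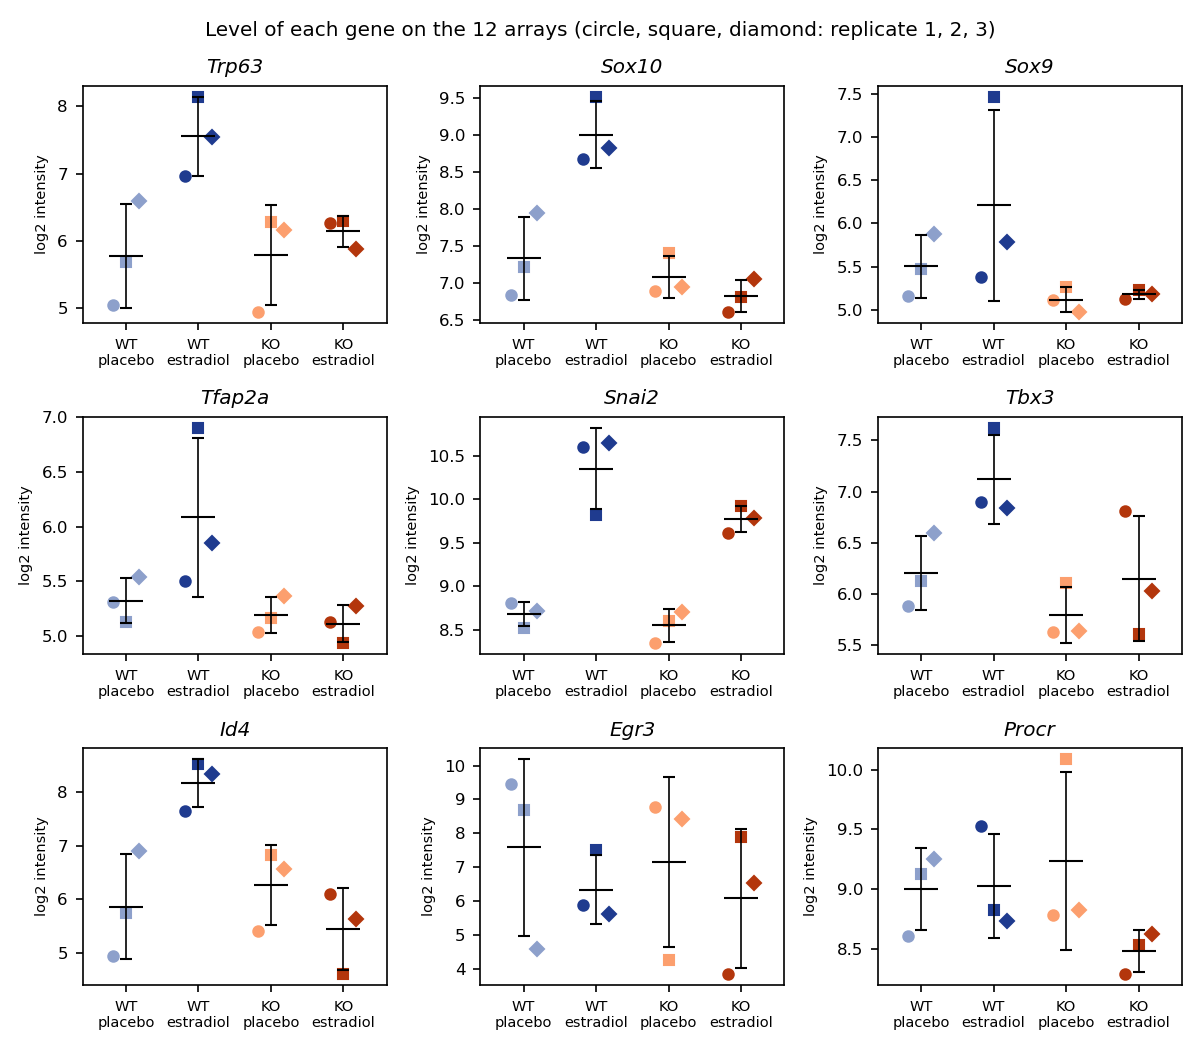
Log2 intensity (y axis of each panel) of the 9 genes on each of the 12 arrays, by group (x axis; WT wildtype, KO knockout). Points are single arrays, with circle, square and diamond for replicates 1, 2 and 3, lines are group means and bars 1 SD (n = 3). In Sox10 and Id4 only the wildtype estradiol arrays stand above the rest, in Snai2 both estradiol groups do, and Egr3 spreads from 3.84 to 9.47 without regard to group.

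Trp63 encodes p63, the p53 relative that basal cells of stratified and glandular epithelia require. Its log2 level was 5.05, 5.68 and 6.59 in the wildtype placebo arrays and 6.97, 8.14 and 7.54 in the wildtype estradiol arrays. In the knockout it was 4.94, 6.28 and 6.16 on placebo and 6.26, 6.30 and 5.87 under estradiol. The wildtype estradiol arrays were the 3 highest of the 12 and overlapped no other group, while the other 3 groups overlapped one another. The wildtype difference of 1.78 ± 0.46 (SE) missed the threshold (limma adjusted p = 0.090), and passed it when wildtype placebo array 3 was left out (2.19, adjusted p = 0.025). Without that array, the highest of its group, 1146 genes were called in wildtype, against 342 with all arrays. The knockout difference was 0.35 ± 0.46 (adjusted p = 0.87) and the knockout minus wildtype difference under estradiol -1.41 ± 0.46 (adjusted p = 0.21). Averaged over genotypes, the difference of 1.06 had an unadjusted exact two-sided permutation p of 0.035, and limma did not call it (adjusted p = 0.15).

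Sox10, a SOX-family factor of the neural crest and its glia and of mammary basal and progenitor cells, was the member called between genotypes under estradiol. Its log2 level was 6.84, 7.22 and 7.94 in wildtype placebo and 8.68, 9.52 and 8.83 in wildtype estradiol arrays. In knockout arrays it was 6.89, 7.40 and 6.94 on placebo and 6.61, 6.80 and 7.04 under estradiol. Every wildtype estradiol array lay above all 9 others, and the 2 knockout groups overlapped. Sox10 rose in wildtype by 1.68 ± 0.30 in log2, 3.20-fold (adjusted p = 0.0218), while the knockout difference was -0.26 ± 0.30 (adjusted p = 0.86). Under estradiol it was 4.57-fold lower in knockout than in wildtype (-2.19 ± 0.30, adjusted p = 0.0151), and 0.363% of all genes differed by more in that comparison. The knockout response was smaller than the wildtype response by 1.94 (interaction -1.94 ± 0.42, 95% interval -2.88 to -0.99, unadjusted p = 0.000999), which did not pass over all genes (adjusted p = 0.24).

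Neither Sox10 call held whichever array was left out. The wildtype call was lost without wildtype placebo array 1 (1.43, adjusted p = 0.093), placebo array 2 (1.62, 0.103), estradiol array 2 (1.42, 0.062) or estradiol array 3 (1.77, 0.061). The call between genotypes was lost without knockout estradiol array 1, 2 or 3 (adjusted p = 0.051, 0.055 and 0.060), with differences of -2.09 to -2.30. The wildtype difference stayed between 1.42 and 1.77 in these cases, and the groups kept their order. Fewer of all genes were called in these cases too. In wildtype they were 100 to 242, against 342 with all arrays, and between genotypes 0 to 58, against 204.

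Sox9, a SOX-family factor of luminal progenitors and basal stem cells, was carried by 1 array. It read 5.15, 5.47 and 5.88 in wildtype placebo and 5.38, 7.47 and 5.78 in wildtype estradiol arrays. It read 5.11, 5.27 and 4.97 in knockout placebo and 5.12, 5.23 and 5.19 in knockout estradiol arrays. Apart from wildtype estradiol array 2, all values lay between 4.97 and 5.88. The wildtype difference was 0.71 ± 0.43 (adjusted p = 0.54), and 0.08 without that array. Under estradiol the knockout arrays lay below the wildtype arrays, with a difference of -1.03 ± 0.43 (adjusted p = 0.34), or -0.41 without the array.

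Tfap2a encodes AP-2 alpha, a factor of ectodermal epithelia and of the developing breast. Its levels were 5.31, 5.12 and 5.53 in wildtype placebo and 5.50, 6.91 and 5.85 in wildtype estradiol arrays. They were 5.04, 5.16 and 5.37 in knockout placebo and 5.12, 4.93 and 5.27 in knockout estradiol arrays. The same array 2 was again the highest of the 12, and the wildtype groups overlapped, since placebo array 3 lay just above estradiol array 1. The wildtype difference was 0.76 ± 0.30 (adjusted p = 0.28), 0.35 without array 2, and the knockout difference -0.08 ± 0.30 (adjusted p = 0.96). Under estradiol the knockout was at -0.98 ± 0.30 relative to wildtype (adjusted p = 0.18), with no overlap of arrays, and at -0.57 without wildtype estradiol array 2.

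Wildtype estradiol array 2 was the highest of its group in 7 of the 9 members. It also had the highest luminal marker score of the 12 arrays, 2.91, against 1.28 and 1.89 in the other wildtype estradiol arrays. The part of luminal content in the values of array 2 was not tested.

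Snai2 encodes Slug, a zinc-finger repressor of the Snail family that holds mammary basal cells in their state. It was the only member whose estradiol arrays all lay above the placebo arrays in the knockout too. Its levels were 8.80, 8.52 and 8.72 in wildtype placebo and 10.59, 9.81 and 10.65 in wildtype estradiol arrays. In the knockout they were 8.35, 8.60 and 8.71 on placebo and 9.62, 9.92 and 9.78 under estradiol. All 6 estradiol arrays lay above all 6 placebo arrays, and under estradiol the genotypes overlapped through wildtype array 2, the lowest of its group. Snai2 rose in wildtype by 1.67 ± 0.21, 3.18-fold (adjusted p = 0.00486). The knockout difference was 1.22 ± 0.21, 2.33-fold, with an unadjusted p of 0.000164, and it missed the threshold over all genes (adjusted p = 0.0996). Over both genotypes Snai2 rose by 1.45 ± 0.15 (adjusted p = 0.0017), and the two-sided exact permutation test gave p = 0.005, the smallest that 400 arrangements within genotypes can give.

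The response of Snai2 was not shown to differ between genotypes: the interaction was -0.45 ± 0.30 (adjusted p = 0.87), with a 95% interval from -1.11 to 0.21. Its difference between genotypes under estradiol was -0.58 ± 0.21 (adjusted p = 0.26). Wildtype estradiol array 2 bore on both values: without it the knockout estradiol difference, whose own 6 arrays were unchanged, passed (1.22, adjusted p = 0.0106), since the spread of all groups is estimated together, and so did the genotype difference under estradiol (-0.85, adjusted p = 0.0497). The wildtype call held whichever of the 12 arrays was left out, with differences from 1.52 to 1.94.

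Tbx3, a T-box repressor needed for the mammary buds to form, read 5.88, 6.13 and 6.60 in wildtype placebo and 6.89, 7.62 and 6.84 in wildtype estradiol arrays. It read 5.63, 6.11 and 5.64 in knockout placebo and 6.81, 5.61 and 6.03 in knockout estradiol arrays. The wildtype estradiol arrays were again the 3 highest, by a narrow margin over knockout estradiol array 1. The wildtype difference was 0.92 ± 0.33 (adjusted p = 0.23), the knockout difference 0.36 ± 0.33 (adjusted p = 0.82) and the difference between genotypes under estradiol -0.97 ± 0.33 (adjusted p = 0.22). The average estradiol difference of 0.64 had an unadjusted exact two-sided permutation p of 0.045 and was not called by limma (adjusted p = 0.22).

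Id4 encodes an inhibitor of basic helix-loop-helix factors that is found in mammary basal cells and keeps luminal genes down in them. Of the 9 members it showed the largest difference under estradiol in wildtype, between genotypes under estradiol and in the interaction. The log2 levels were 4.94, 5.74 and 6.90 in wildtype placebo and 7.66, 8.52 and 8.33 in wildtype estradiol arrays. In the knockout they were 5.41, 6.82 and 6.56 on placebo and 6.10, 4.60 and 5.63 under estradiol. The wildtype estradiol arrays lay above all 9 others, and in the knockout the lowest value was an estradiol array. The wildtype difference of 2.31 ± 0.56 (4.94-fold) missed the threshold (adjusted p = 0.0746), with a spread of 0.98 (SD) among the 3 placebo arrays. It passed without wildtype placebo array 3, the highest of its group (2.82, adjusted p = 0.020). In that setting 1146 genes were called in wildtype, against 342 with all arrays.

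The knockout difference of Id4 was -0.82 ± 0.56 (adjusted p = 0.75), and under estradiol the knockout was at -2.72 ± 0.56 relative to wildtype (adjusted p = 0.051). That last comparison passed without wildtype placebo array 1 or 3 (adjusted p = 0.048 and 0.029). Neither array enters its difference, which stayed at -2.72, but the spread of all groups is estimated together. The interaction of -3.13 ± 0.79 (95% interval -4.88 to -1.37, unadjusted p = 0.0026) was exceeded in size by 0.0495% of all genes and did not pass over them (adjusted p = 0.34).

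**Figure D2:**
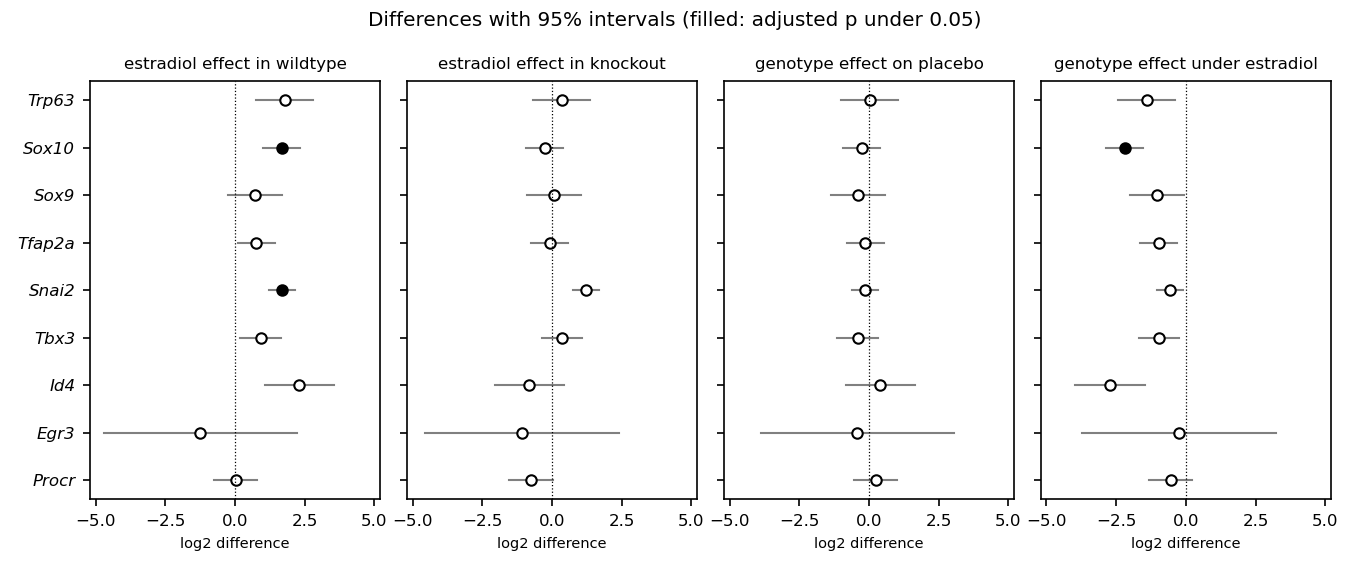
Log2 differences of the 9 genes (x axis) with 95% intervals from the limma fit, in 4 panels: estradiol minus placebo in wildtype and in knockout, and knockout minus wildtype on placebo and under estradiol. Filled points had an adjusted p under 0.05: Sox10 and Snai2 in the first panel and Sox10 in the last, while the placebo panel has every point near 0, between -0.42 and 0.40.

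The stretch of DNA just before the start of a gene is shown for Id4, which had the largest estradiol difference in wildtype, and for Procr, which had almost none. Both are reference sequence from RefSeq (build GRCm38.p6), 250 bases 5′ to 3′ on the plus strand ending just before the start. The Id4 window is chr13:48260866-48261115 and the Procr window chr2:155750967-155751216. Capitals mark the only searched motif found, in Procr. Of the 9 members, 3 were matched in the promoter table used: Id4, Procr and Tfap2a, the last with 2 windows.
Id4: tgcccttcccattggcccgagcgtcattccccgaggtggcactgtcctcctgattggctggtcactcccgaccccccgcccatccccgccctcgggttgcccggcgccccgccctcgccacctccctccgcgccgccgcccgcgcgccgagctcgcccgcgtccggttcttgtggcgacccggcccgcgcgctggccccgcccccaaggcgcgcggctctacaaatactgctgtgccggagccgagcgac
Procr: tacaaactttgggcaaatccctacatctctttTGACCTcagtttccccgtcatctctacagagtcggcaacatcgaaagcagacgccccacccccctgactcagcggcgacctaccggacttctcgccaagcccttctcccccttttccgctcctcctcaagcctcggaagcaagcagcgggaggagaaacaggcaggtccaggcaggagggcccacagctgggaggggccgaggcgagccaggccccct

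The Id4 window is 75.6% G and C and the Procr window 61.6%, against a median of 52.4% over 32851 windows of the same length. The motifs were searched on both strands. The estrogen response element palindrome, GGTCA and TGACC with 3 bases between, was in neither window and in none of the 4 windows of the members, and in 0.0639% of all windows. Its half-site AGGTCA, which shares GGTCA with the palindrome and reads TGACCT on the other strand, was found once, 218 bases before the start of Procr, the gene without a difference in wildtype, and stood in 14% of all windows. The Snail-type E-box CAGGTG (17.2% of all windows) and the AP-2 motif, GCC and GGC with 3 bases between (13.7%), were in none of the 4. These are matches of letters within 250 bases and say nothing of binding.

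Egr3, an immediate early zinc-finger factor that is induced by many signals, estrogen among them in breast cancer cells, and that also acts in lymphocytes, varied most between arrays. Its levels were 9.47, 8.69 and 4.60 in wildtype placebo and 5.89, 7.50 and 5.62 in wildtype estradiol arrays. In the knockout they were 8.78, 4.27 and 8.44 on placebo and 3.84, 7.89 and 6.52 under estradiol. All groups overlapped, and knockout placebo array 2 and knockout estradiol array 1 lay under the lower quartile of their array. The estradiol difference was -1.25 ± 1.56 in wildtype (adjusted p = 0.80) and -1.08 ± 1.56 in knockout (adjusted p = 0.88). The wildtype interval, -4.71 to 2.22, leaves its direction undetermined. Without wildtype placebo array 3 the wildtype difference was -2.74 (adjusted p = 0.29), and without placebo array 1 it was -0.31 (adjusted p = 0.99). With wildtype placebo array 3 and knockout placebo array 2 both left out, the average over genotypes was -2.63 and passed (adjusted p = 0.037), against -1.16 on all 12 arrays (adjusted p = 0.65). Every placebo array then left had a higher lymphocyte score (1.81 to 2.53) than every estradiol array (1.63 or lower). Estradiol and lymphocyte content can therefore not be told apart in that value. The same setting called 3913 genes, against 287 on all 12 arrays.

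Egr3 was high where lymphocyte genes were high. In the same order of arrays the lymphocyte score was 2.53, 1.81 and -2.02 in wildtype placebo and -2.32, 0.81 and -2.48 in wildtype estradiol. It was 1.94, -2.02 and 2.01 in knockout placebo and -2.25, 1.63 and 0.35 in knockout estradiol. In all 4 groups the array with the lowest Egr3 level was the one with the lowest score, and in every group but knockout placebo the 3 arrays had the same order by both. With the score as a covariate the wildtype difference was 0.80 (adjusted p = 0.28), and the knockout minus wildtype difference under estradiol was -1.45 and passed (adjusted p = 0.0446), against -0.25 without it (adjusted p = 0.97). A weaker probe set of Egr3 showed none of this spread and stayed between 6.24 and 6.70 on all arrays.

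Procr encodes the endothelial protein C receptor, a surface protein of vessels and of a rare multipotent basal cell in the mouse mammary gland. It read 8.62, 9.13 and 9.26 in wildtype placebo and 9.53, 8.83 and 8.73 in wildtype estradiol arrays. It read 8.79, 10.09 and 8.83 in knockout placebo and 8.29, 8.53 and 8.63 in knockout estradiol arrays. The wildtype groups overlapped, and the 3 knockout estradiol arrays lay below every array of the other groups except wildtype placebo array 1. The wildtype difference was 0.03 ± 0.35 (95% interval -0.75 to 0.80), and the knockout difference -0.75 ± 0.35 (adjusted p = 0.61), or -0.32 without knockout placebo array 2, the highest of the 12 (adjusted p = 0.57). None of the 12 endothelial marker genes was called in either estradiol comparison.

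**Figure D3:**
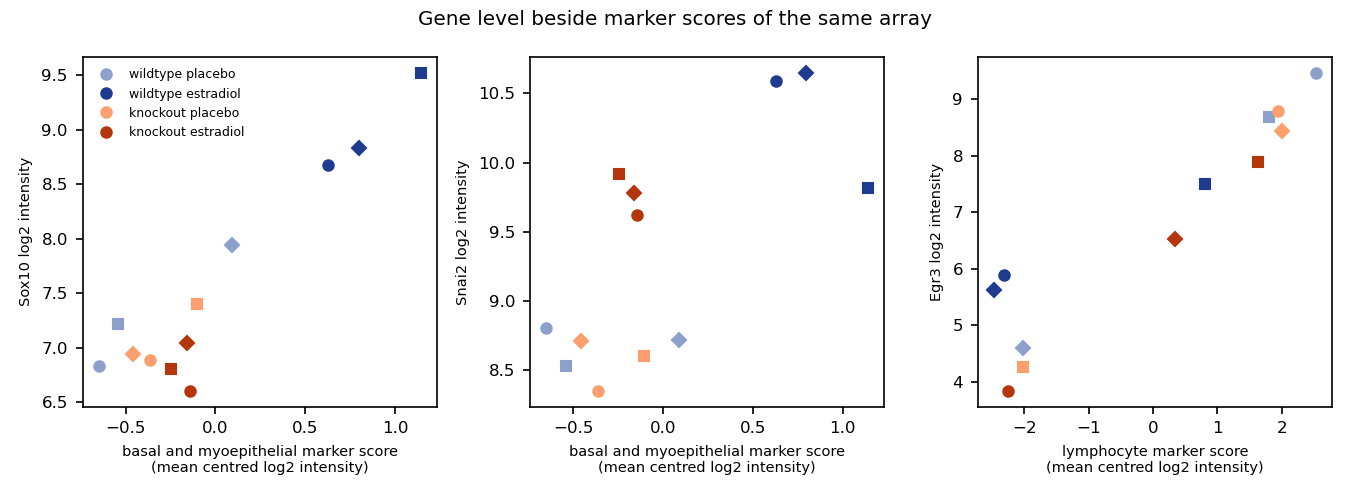
Log2 intensity of Sox10 and of Snai2 against the basal and myoepithelial marker score, and of Egr3 against the lymphocyte marker score, on the 12 arrays (a score is the mean of a list's log2 intensities, each gene centred over the arrays). The wildtype estradiol arrays are at the top right for Sox10. For Snai2 the knockout estradiol arrays stand 9.62 or higher at scores of -0.25 to -0.14, and the knockout placebo arrays, at scores of -0.46 to -0.10, stand at 8.35 to 8.71.

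The other probe sets of the same genes were set beside these values, each tested on its own among 34945. In wildtype 1.23% of all probe sets were called for estradiol, in knockout 0.0572%, and 0.707% between genotypes under estradiol. A second Id4 probe set was called where the brightest was not. It read 4.67, 5.33 and 6.82 in wildtype placebo, 8.06, 8.79 and 8.64 in wildtype estradiol, 5.30, 6.46 and 6.00 in knockout placebo and 5.81, 4.96 and 5.58 in knockout estradiol arrays. On it Id4 rose in wildtype by 2.89 ± 0.50 (adjusted p = 0.0227) and was lower in knockout under estradiol (-3.05 ± 0.50, adjusted p = 0.0275). The remaining Id4 probe set differed by 1.01 in wildtype (adjusted p = 0.14).

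The brightest probe set of Snai2 is of a kind (_x_at) whose probes can also match other transcripts. A second Snai2 probe set, of the ordinary kind, read 4.60, 4.84 and 4.88 in wildtype placebo, 6.55, 5.45 and 6.13 in wildtype estradiol, 4.59, 4.54 and 4.47 in knockout placebo and 5.54, 5.53 and 5.43 in knockout estradiol arrays. Here too every estradiol array lay above every placebo array. The wildtype rise was 1.27 ± 0.22 (adjusted p = 0.023), and the knockout difference was 0.97 ± 0.22 (adjusted p = 0.32).

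A second Tfap2a probe set was called between genotypes under estradiol (-1.80 ± 0.34, adjusted p = 0.0457) and differed by 1.44 in wildtype (adjusted p = 0.081). For Sox10 the other 2 probe sets had smaller wildtype differences of 0.51 (adjusted p = 0.096) and 0.29 (adjusted p = 0.40). For Trp63 a second probe set differed by 0.57 (adjusted p = 0.082) and another by 0.05. Of the other Tbx3 probe sets, 1 differed by 0.75 and 2 more by -0.09 and 0.04. The third Tfap2a probe set differed by 0.25 in wildtype (adjusted p = 0.43). A second Sox9 probe set lay under the lower quartile on 9 of the 12 arrays and was highest in wildtype estradiol array 2 (5.37). It differed by 0.60 in wildtype (adjusted p = 0.44) and by -0.78 between genotypes under estradiol (adjusted p = 0.32). Another probe set each of Trp63, Sox9 and Tbx3 lay under the lower quartile on all 12 arrays, so the differences of these 3 are not read here.

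**Figure D4:**
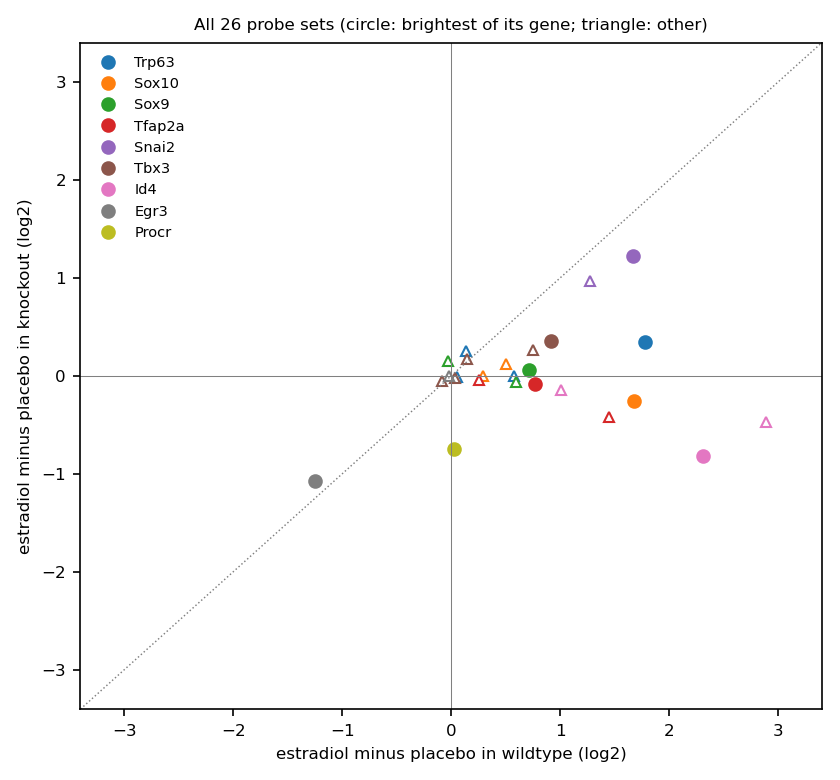
Estradiol minus placebo in wildtype (x axis) against the same difference in knockout (y axis), both log2, for all 26 probe sets of the 9 genes. Circles are the brightest probe set of each gene, triangles the others, and the dotted line marks equal differences. Both probe sets of Snai2 stand apart with the highest knockout differences of the 26, 1.22 and 0.97, and those of Id4 and Sox10 lie to the right with knockout differences of 0.12 or less.

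The genes most like the 2 called members were found by Pearson r over the 12 arrays, given as a description since the arrays share groups. Sox10 was followed most closely by Wif1 (r = 0.980, Spearman rho = 0.916), a secreted Wnt inhibitor, by the tetraspanin Cd9 (0.975 and 0.860) and by Tmem40 (0.972 and 0.916). Snai2 was followed by Fbxw17 (0.972 and 0.909), Nradd (0.964 and 0.944) and Ngfr (0.964 and 0.881), the low-affinity neurotrophin receptor of basal cells and nerves. The estradiol differences of Wif1 were 2.21 in wildtype and -0.47 in knockout, those of Cd9 1.23 and -0.34 and those of Tmem40 1.53 and -0.13. For the genes like Snai2 the sizes varied: Ngfr was at 3.72 and 2.48, Fbxw17 at 1.91 and 1.39, and Nradd at only 0.34 and 0.23.

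Marker genes of the basal layer were set beside the members. All 12 basal and myoepithelial markers had wildtype differences above 0, with a median of 0.88, 4 of the 12 rose and none fell. In the knockout none was called and the median was -0.19. The largest difference of the list was that of Oxtr, the oxytocin receptor, which rose in wildtype by 4.46 (adjusted p = 0.0084) and was at 3.85 in knockout (adjusted p = 0.0995). Averaged over both genotypes Oxtr rose by 4.16 (adjusted p = 0.0020). Acta2, smooth muscle actin, rose by 1.59 (adjusted p = 0.0052) and Cnn1, calponin, by 1.97 (adjusted p = 0.018), and both were lower in knockout under estradiol (-1.56 and -2.15, adjusted p = 0.015 and 0.019). Krt5 differed by 0.88 (adjusted p = 0.077) and Krt14 by 1.53 (adjusted p = 0.14) in wildtype, and neither passed.

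The summed intensity of the 12 basal markers ran from 4486 to 6393 in wildtype placebo, 11757 to 15321 in wildtype estradiol, 4886 to 6387 in knockout placebo and 7716 to 8169 in knockout estradiol. With the basal score as a covariate the wildtype difference of Sox10 was -0.09 (adjusted p = 0.91) and its difference between genotypes -0.69 (adjusted p = 0.22). That of Snai2 in wildtype was 2.21 (adjusted p = 0.15) and in knockout 1.28 (adjusted p = 0.080). Since the score lies apart in the wildtype estradiol group, with every array of it above all 9 others, basal content and the estradiol response of wildtype glands can hardly be separated in these arrays.

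The luminal markers had larger differences. Their median wildtype difference was 2.14, with 1 of 12 called, and under estradiol 7 of 12 were lower in knockout, with a median of -3.73. Their summed intensity ran from 1479 to 2471 in wildtype placebo, 5889 to 20178 in wildtype estradiol, 607 to 1875 in knockout placebo and 655 to 1406 in knockout estradiol. With the luminal score as a covariate the wildtype difference was 1.20 for Sox10 (adjusted p = 0.60) and 1.93 for Snai2 (adjusted p = 0.13), and neither passed. Only 10 genes were then called in wildtype, against 342. This score too lies apart in the wildtype estradiol group (1.28 to 2.91, at most 0.49 elsewhere). Luminal content and the wildtype response can therefore hardly be separated either. All 11 measured fibroblast markers also lay above 0 in wildtype (median 0.89, 1 called), against a median of -0.21 in knockout.

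Sox10 also marks Schwann cells and melanocytes. Of 8 measured Schwann cell markers, 1 was called in each genotype, Ngfr, and the Schwann score of the wildtype estradiol arrays was 1.20, -0.12 and 0.80. The Schwann cell part in the level of Sox10 was not tested. Of 8 melanocyte markers none was called in either estradiol comparison, and Tyr, the tyrosinase gene, lay under the lower quartile on all 12 arrays. Of 12 markers of epidermis and hair follicle none was called, and Flg and Dsg1a lay under the lower quartile on all arrays. No adipocyte or skeletal muscle marker was called in either estradiol comparison, and the muscle median was -0.999 in wildtype and 0.92 in knockout. The muscle score varied widely, from -3.47 in knockout placebo array 3 to 3.86 in wildtype placebo array 2. On placebo the muscle markers had a median of -2.88 in knockout relative to wildtype, with none called. The part of muscle content in the members' levels was not tested.

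The lists that follow were drawn up from general knowledge with earlier results of these data known, and each is described beside the background given above. Among 21 measured genes tied to p63 and the basal layer, 4 rose in wildtype and none fell, with a median difference of 0.88 and 19 above 0. The 4 were Perp (2.92, adjusted p = 0.00486), a p63 target in desmosomes, Col17a1 (1.57, 0.014), the hemidesmosomal collagen, Krt6a (1.45, 0.035) and the laminin chain Lama3 (0.90, 0.0488). Col17a1 lay under the lower quartile on 9 of the 12 arrays. In the knockout none was called and the median was -0.05, with Itga6 and Fgfr2 of lowest p (-0.72 and -0.63, adjusted p = 0.42 and 0.56). Under estradiol 5 of the 21 were lower in knockout, among them Perp (-3.64, adjusted p = 0.0061) and Itgb4 (-1.61, adjusted p = 0.046). None was called in the interaction, where Perp was at -3.32 (adjusted p = 0.15).

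Close relatives of the members within their gene families were measured for 14 of 15. In wildtype 3 rose and none fell: Egr2 by 3.06 (adjusted p = 0.013), Tfap2c by 2.80 (adjusted p = 0.0199) and Snai1 by 1.32 (adjusted p = 0.0103). Tfap2c encodes AP-2 gamma, the family's main member in luminal cells, and Snai1 encodes Snail, the nearest relative of Slug. The other Id genes differed little in wildtype, with Id1 at 0.14, Id2 at -0.43 and Id3 at 0.26, none of them called. Egr1 was at -0.05 and Tbx2 at 0.56. In the knockout none of the 14 was called, with Egr2 at 1.76 (adjusted p = 0.35) and Snai1 at 0.42 (adjusted p = 0.62), and the median was 0.05. Under estradiol 1 relative was lower in knockout, and none was called in the interaction, where Tfap2c was at -2.93 (adjusted p = 0.30).

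Of 19 stem and progenitor markers, Prom1 alone rose in wildtype (2.07, adjusted p = 0.0139), none was called in knockout, and 2 were lower in knockout under estradiol. One of these was Elf5, a factor of alveolar progenitors (-4.57, adjusted p = 0.036). The median was 0.48 in wildtype and -0.06 in knockout. In the knockout the lowest p belonged to Axin2, a Wnt target (0.91, adjusted p = 0.32), and Nrp1 (-0.51, adjusted p = 0.50).

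Among 14 luminal and hormone-sensing regulators, Greb1, an estrogen receptor target, rose by 5.83 in wildtype (adjusted p = 7.46e-06) and by 4.41 in knockout (adjusted p = 7.76e-05). Pgr, the progesterone receptor, rose by 3.06 in wildtype (adjusted p = 0.0025). Greb1 lay under the lower quartile on 5 arrays and Pgr on 2. The interaction was -1.41 for Greb1 and -1.45 for Pgr, and neither passed (adjusted p = 0.40 and 0.58). Snai2 and Greb1 both had differences above 1 in both genotypes, and of these 2 genes only Greb1 was called in the knockout. Differences above 1 in both genotypes were also found for Egr2, Oxtr, Ngfr, Prrx2 and Rspo1, among other genes.

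Of 12 regulators of the transition between epithelium and mesenchyme, which Snai2 can drive, Prrx2 rose in wildtype (2.97, adjusted p = 0.00486). It was at 1.75 in knockout (adjusted p = 0.21), where none was called. The list's median was 0.83 in wildtype and -0.0034 in knockout. Cdh1, the epithelial cadherin, was at 1.64 in wildtype (adjusted p = 0.26) and -0.80 in knockout (adjusted p = 0.78), and its interaction was -2.43 (adjusted p = 0.65).

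Of 16 BMP and Wnt genes, signals that act on Id and Tbx3 genes, Rspo1, a Wnt amplifier of luminal cells, rose in wildtype (2.34, adjusted p = 0.0178) and was at 1.61 in knockout (adjusted p = 0.31). The list's medians were 0.061 and -0.20. Of 12 immediate early genes beside Egr3, Jun rose by 0.87 (adjusted p = 0.018) and Ier3 by 1.53 (adjusted p = 0.045) in wildtype, and none was called in knockout (0.45 and 0.67). Of 7 genes of the protein C pathway, in which Procr is the receptor, none was called in any comparison of estradiol or genotype under estradiol, with Pros1, protein S, at 0.88 in wildtype (adjusted p = 0.088). No gene of these 3 lists was called in the interaction.

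**Figure D5:**
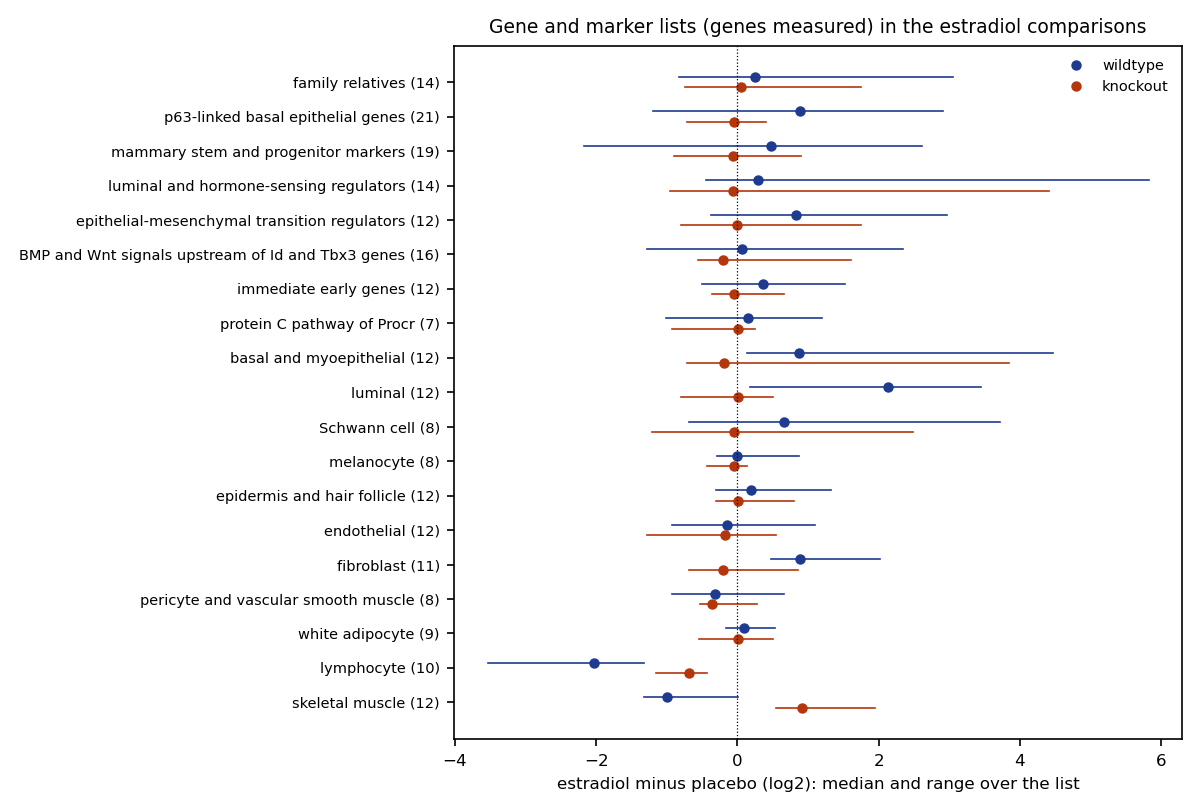
Median (point) and range (line) of the log2 estradiol minus placebo difference over each gene list and each cell type marker list, with the number of genes measured in brackets, in wildtype (blue) and knockout (red). In wildtype the p63-linked, basal and fibroblast lists have medians of 0.88 to 0.89 and the luminal markers 2.14, and in knockout the medians of these 4 lists lie between -0.21 and 0.01.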

How the data were processed

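Total RNA from 12 mammary glands was measured on 12 Affymetrix arrays of 45101 probe sets. The deposited values are log2 intensities, which the authors made with RMA and analysed with limma 2.9.16, per the submitters' processing notes. RMA corrects background, sets all arrays to 1 distribution and summarises each probe set, so a shift shared by all genes is removed. The chip definition is not given in the sources used here. By the platform annotation 34945 probe sets name a single gene, 932 name several, 9160 name none and 64 are controls. Of the 18193 genes, 9010 had more than 1 probe set and were represented by the brightest over all 12 arrays. All 7 comparisons come from 1 limma fit (version 3.58.1, R 4.3.3) of 4 group means with eBayes, two-sided, with Benjamini-Hochberg adjustment over the 18193 genes. Single values were also tested by exact permutation. No filter on dim genes was applied. The named genes are the 9 members, the 3 genes most like each called member and, per list and comparison, up to 4 called genes or the 2 of lowest p, and single markers beside a member's result. Genes of the lists that are named beyond this were chosen after their values were seen: Oxtr, Acta2, Cnn1, Krt5, Krt14, Id1, Id2, Id3, Egr1, Tbx2, Elf5 and Itgb4. The members and lists were chosen with earlier results of these data known. The scripts were tested on simulated data. Same-numbered arrays of different groups did not deviate together (r from -0.74 to 0.66), so the replicate numbers were not used as pairs. The labels name no batch.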

Additional observations from a re-analysis of the deposited data

How the results depend on the processing

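The counts of members called moved with the settings. In wildtype, estradiol called 2 members, and 3 with the mean of all probe sets, 5 with array weights, 4 at an adjusted p under 0.10, 4 when the 2 placebo arrays poor in lymphocyte genes were omitted, 0 with the 6 arrays of the comparison alone (Sox10 adjusted p = 0.158, Snai2 0.0767), and 0 with the luminal or the basal score as a covariate. Leaving out 1 array at a time gave 1 to 4. With the basal score the Sox10 difference reversed to -0.087. In the knockout the count of 0 became 1 with array weights and at an adjusted p under 0.10, and 0 to 1 without single arrays. Between genotypes under estradiol the count of 1 became 2 with the mean of all probe sets, with trend and robust priors, with array weights, at an adjusted p under 0.10 and without the 2 placebo arrays, 3 with the lymphocyte score, 0 with the luminal or basal score, and 0 to 2 without single arrays. The average estradiol count of 1 became 4 with array weights (3804 genes called, against 287), 5 without the 2 placebo arrays (3913 genes) and 0 with the basal score (18 genes). It was 1 to 3 without single arrays. The average genotype count of 0 became 1 with array weights, at an adjusted p under 0.10 and with the lymphocyte score. The interaction and the placebo comparison stayed at 0 in every alternative run. The cause of these changes was not tested. With the replicate block the wildtype count was 2 (158 genes called, against 342) and no other count of members changed. Genes called in wildtype ranged from 4 with the basal score to 2780 with array weights, and from 100 to 1146 without single arrays. Without the 2 placebo arrays they were 2154. Between genotypes under estradiol the genes called ranged from 0 with the luminal score to 946 with the lymphocyte score, against 204 in the main fit.

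Sox9 and Tfap2a were among the dimmest 40% of genes and had no value under that filter, and Egr3 lay under the lower quartile on 2 arrays.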

Other observations

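Within the groups, single arrays stood high or low for most members at once. Wildtype placebo array 3 was the highest of its group for 7 of the 9 genes and array 1 the lowest for 6. Knockout placebo array 2 was the highest for 6 and array 1 the lowest for 7. The placebo arrays that stood high are the 2 with lymphocyte scores of -2.02. Under estradiol the arrays did not follow that pattern. Wildtype estradiol array 2 had the highest score of its group (0.81) and was the highest for 7 genes. Array 3 had the lowest score there (-2.48) and was the lowest for 3 genes, while array 1 was the lowest for 5. Knockout estradiol array 1 had the lowest score of its group (-2.25) and was the lowest for 5. Knockout estradiol array 2 had the highest score (1.63) and was the highest for 4 genes and the lowest for 3. With the 2 placebo arrays left out, every placebo array kept had a higher lymphocyte score than every estradiol array. The wildtype differences were then 2.19 for Trp63 (limma adjusted p = 0.017), 1.98 for Sox10 (0.0044), 2.82 for Id4 (0.0137), 1.11 for Tbx3 (0.072) and -2.74 for Egr3 (0.12). With all 12 arrays and the lymphocyte score as a covariate they were 1.56 for Trp63 (adjusted p = 0.106), 1.58 for Sox10 (0.027), 1.82 for Id4 (0.066), 0.70 for Tbx3 (0.26) and 0.80 for Egr3 (0.28).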
